A study of Mus musculus with 21 samples.

Results

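The genes described here encode the partners of DDX6 in P-bodies and in mRNA decapping: *Lsm14a*, *Lsm14b*, *Edc3*, *Edc4*, *Patl1*, *Eif4enif1*, *Dcp1a*, *Dcp1b*, *Dcp2* and *Xrn1*. They were taken by name, without use of any measured value, and all 10 matched an Ensembl gene in the table of 51467 genes. All 10 were among the 14518 genes with at least 3 CPM (counts scaled to a common library total) in at least 3 libraries, the genes that were tested. The data come from mouse embryonic stem cells (ESCs) of the V6.5 line, grown in naive conditions, with 3 cultures of wild type and 4 of *Ddx6* KO. The KO cultures come from 2 clones made with CRISPR-Cas9, 2 cultures each. By the study's methods, the 2 clones carry different lesions at the guide's target, a small insertion and a much longer deletion. From every culture, nascent RNA labelled for 30 min with 500 µM 4-thiouridine (4sU) and total RNA were sequenced, which gave 14 libraries of between 2441639 and 7369651 counts. The labels number the replicates without saying how the cultures were kept apart, so p-values measure the spread between these samples, which may be technical, and the KO lines behind them are 2.

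DDX6 is a DEAD-box RNA helicase that sits between the repression of translation and the removal of the mRNA cap. LSM14A and LSM14B, EIF4ENIF1 (also known as 4E-T), EDC3 and PATL1 bind the helicase directly, and LSM14 proteins and 4E-T are needed for P-bodies, the cytoplasmic granules that hold repressed mRNAs. DCP2 removes the cap with its cofactors DCP1A and DCP1B, EDC3 and EDC4 promote that step, PATL1 connects it with the LSM1-LSM7 ring on deadenylated tails, and XRN1 degrades the uncapped mRNA from its 5′ end. DDX6 also serves microRNA silencing, and in ESCs the embryonic stem cell enriched microRNAs that share a seed are prominent.

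Some mature microRNAs of that family are shown because their common seed, bases 2 to 8 in capitals, defines the sites searched for in the members. Others of the family, miR-302a-3p among them, are not shown. Sequences are those of RefSeq on GRCm38.p6, written 5′ to 3′.
miR-291a-3p: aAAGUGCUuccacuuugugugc
miR-294-3p: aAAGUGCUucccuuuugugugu
miR-295-3p: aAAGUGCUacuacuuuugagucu
miR-302b-3p: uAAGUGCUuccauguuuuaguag
The site letters are AGCACTT, searched on the transcript strand of the annotated 3′ UTR of each gene's principal transcript only. They were found in *Dcp1b* and *Dcp2*, 2 of 10 members, against 16.3% of the 12104 principal coding transcripts of tested genes. The site of *Dcp1b* was the only one among the members with an A after it (AGCACTTA, in 3.35% of transcripts) and lies at chr6:119221487-119221515 on the plus strand of mm10 (GRCm38), where the capitals mark the letters searched for.
*Dcp1b* site: gttcaatccctAGCACTTaaaaaaagaaa
*Dcp2* held 5 such sites in a 3′ UTR of 7240 bases, which was longer than that of 99.0% of the transcripts. Its sites are given by number only. GCACTT, which AGCACTT contains, occurred in 5 members (*Dcp1b*, *Dcp2*, *Edc3*, *Lsm14b* and *Xrn1*) and in 31.2% of transcripts. TATTTAT, an AU-rich motif, was in the 3′ UTRs of *Dcp1a*, *Dcp1b*, *Dcp2* and *Edc3*, 4 of 10, and in 28.5% of transcripts.

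The members differed widely in transcript architecture. Annotated 3′ UTRs ran from 218 bases in *Xrn1* and 346 in *Edc4* to 4004 in *Edc3* and 7240 in *Dcp2*, beside a median of 1018 over all coding transcripts. The *Xrn1* value is that of its principal transcript of 5499 bases, while its deposited gene length is 10481 bases. Sites and motifs in the rest of that length were not searched, so the *Xrn1* features depend on the transcript chosen. Coding sequences ran from 1158 bases in *Lsm14b* to 5172 in *Xrn1*, which has 42 exons, and *Edc4* has 29. The 4 members with the AU-rich motif include the 3 with the longest 3′ UTRs.

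*Ddx6* itself was measured first as the targeted gene. In total RNA it stood at 334, 384 and 392 normalized CPM in wild type, at 57.3 and 67.8 in clone 1 and at 23.1 and 21.5 in clone 2. Normalized CPM are CPM scaled further by TMM, the unit of every CPM value below. In nascent RNA *Ddx6* was at 242, 244 and 270 in wild type, at 224 and 230 in clone 1 and at 163 and 145 in clone 2. The log2 difference in its mRNA was -3.12 ± 0.32 (SE, adjusted p = 9.23e-06, edgeR quasi-likelihood test), and clone 2 minus clone 1 was -1.49 (adjusted p = 9.73e-16).

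Some facts of the whole series touch these values. Across all genes 50.5% were called in mRNA, 41.5% in nascent RNA and 12.3% in mRNA stability at an adjusted p below 0.05, the threshold used throughout. Naive ESC markers were high in every culture, with the 8 genes summing to 4883-5056 CPM in wild-type and 5029-5240 in KO total RNA. The 7 fibroblast markers summed to 3.34-5.74 CPM in wild type and 10.8-12.6 in KO, with *Thy1* and *Col1a1* higher in KO and *Dcn* and *Postn* at 0 in all total RNA libraries. The 4 neural markers summed to 43.8-50.3 in wild type and 26.5-29.1 in KO, the 4 mesoderm markers to 14.4-20.5 and 11.8-15.1, and the 4 endoderm markers to 5.52-8.35 and 6.05-7.69. Their part in the results was not tested, and in bulk libraries fewer cells of a type cannot be told apart from less RNA per cell. Computed from the mean log2 values of the cultures, and so not equal to the medians of fitted changes given further on, the median change of all tested genes moved with scaling by library size alone from 0.0019 to 0.20 in nascent RNA, from -0.09 to 0.05 in mRNA and from -0.08 to -0.14 in mRNA stability.

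Levels can be compared between genes only per length, here as normalized CPM per kb of the deposited gene length. In wild-type total RNA *Lsm14a*, *Dcp2* and *Edc4* were the most abundant members at 49.8 ± 1.22, 48.06 ± 1.139 and 45.8 ± 3.19 (SD, n = 3), and neighbours in this order overlapped between cultures. Below them, and apart from each other in every culture, came *Lsm14b* at 33.3 ± 1.87, *Eif4enif1* at 21.99 ± 1.09, *Dcp1a* at 15.98 ± 0.815, *Xrn1* at 12.1 ± 0.340, *Patl1* at 9.08 ± 0.511 and *Edc3* at 5.53 ± 0.670. *Dcp1b* was lowest at 1.34 ± 0.173. The place of *Xrn1* depends on its length, since the deposited length is 1.91 times that of its principal transcript. Per kb of that transcript, its level in wild-type total RNA would be 23.0.

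**Figure D1:**
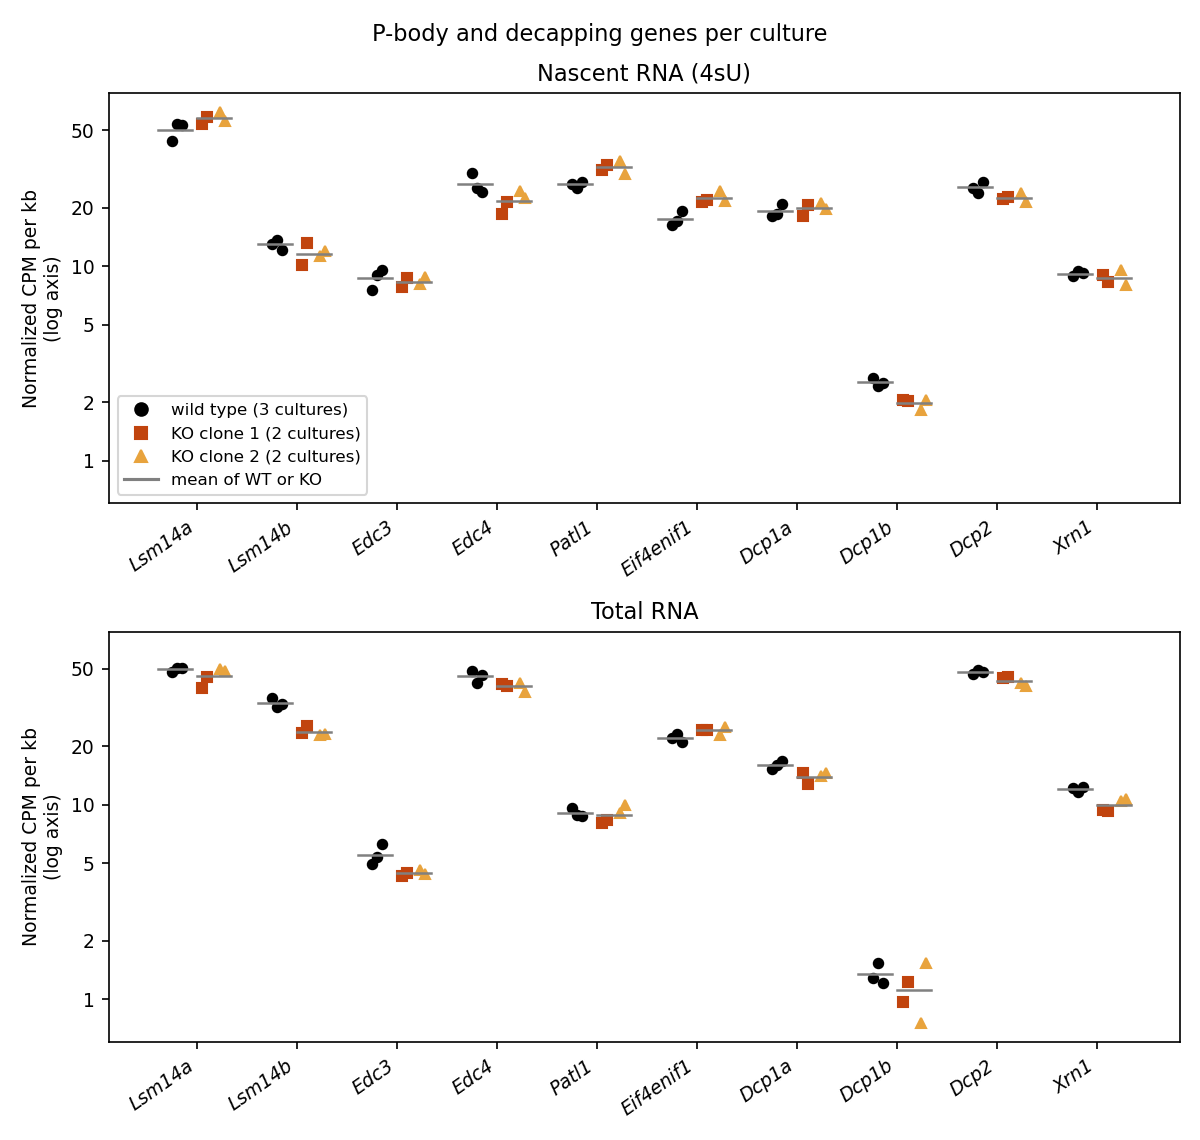
Normalized CPM per kb of deposited gene length for the 10 members in nascent RNA (top) and total RNA (bottom), on a log axis, with 1 symbol per culture and grey bars for the means of 3 wild-type and 4 KO cultures. *Lsm14a* was highest and *Dcp1b* lowest in both assays, and *Lsm14b* separated from wild type in all 4 KO cultures of the total RNA panel.

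The order was different in wild-type nascent RNA. *Lsm14a* led at 50.3 ± 5.42 (SD, n = 3), and *Edc4*, *Patl1* and *Dcp2* followed with overlapping cultures at 26.6 ± 3.18, 26.4 ± 1.02 and 25.4 ± 1.69. *Patl1* thus ranked 3 in nascent and 8 in total RNA, and *Lsm14b* ranked 7 and 4. In KO nascent RNA *Edc4* ranked 5 in place of 2, where its 4 cultures overlapped those of its neighbours *Eif4enif1* and *Dcp1a*.

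The total-over-4sU ratio, which the study uses as a relative measure of mRNA stability, differed widely among the members. It is written here as log2 of total over 4sU after adding 0.5 CPM to each, and it carries no absolute decay rate. *Lsm14b* had the highest ratio in wild type, 1.35 ± 0.126 (SD, n = 3), and in the fit its total-minus-4sU difference was above that of 86.8% of tested genes. *Dcp2* at 0.92 ± 0.113 and *Edc4* at 0.79 ± 0.131 overlapped each other. *Xrn1* at 0.40 ± 0.0789, *Eif4enif1* at 0.32 ± 0.183 and *Lsm14a* at -0.0084 ± 0.125 formed a chain in which neighbours overlapped.

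At the low end were *Dcp1a* at -0.26 ± 0.0467, *Edc3* at -0.64 ± 0.0715 and *Dcp1b* at -0.85 ± 0.208, and the cultures of the last pair overlapped. *Patl1* was lowest at -1.53 ± 0.0950, above only 20.8% of tested genes. Paralogues lay apart: the ratio of *Lsm14b* exceeded that of *Lsm14a* in every culture of either genotype, while *Dcp1a* and *Dcp1b* overlapped in KO.

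**Figure D2:**
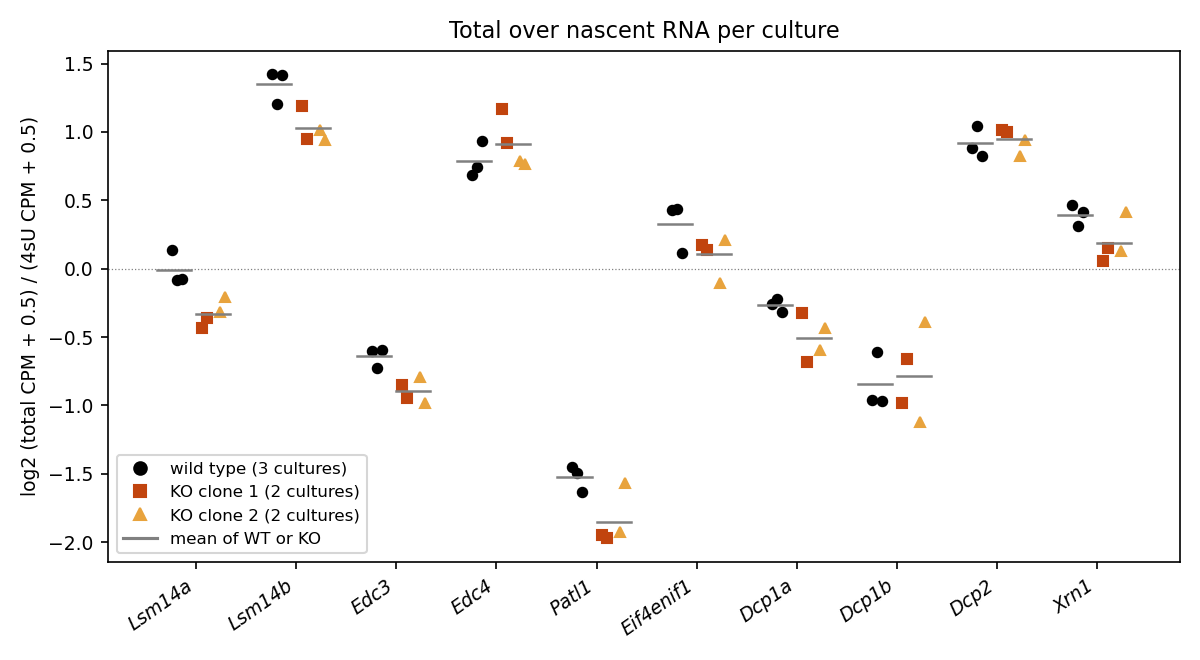
Log2 ratio of total to nascent RNA, with 0.5 CPM added to each, for the 10 members in 7 cultures, with grey bars for the means of wild type and KO. The members ran from *Lsm14b* at the top to *Patl1* at the bottom, and the KO cultures of *Lsm14a*, *Lsm14b*, *Edc3* and *Dcp1a* lay below all 3 wild-type cultures.

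Nascent RNA was compared between *Ddx6* KO and wild type to ask whether synthesis of the partners differed. 5 of 10 members were called, beside 41.5% of all tested genes. *Lsm14a*, *Patl1* and *Eif4enif1* were higher, beside 20.5% of all genes in that direction, and *Edc4* and *Dcp2* lower, beside 21% of all genes. The KO cultures of *Lsm14a*, *Patl1* and *Eif4enif1* lay above all wild-type cultures, as in 20.5% of all genes, and those of *Dcp1b* below them, as in 21.2%. No member passed an absolute log2 fold change of 1 as well, which 10.9% of genes did. The median over the members was -0.07 on the log2 scale and that over all tested genes 0.00037.

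*Eif4enif1*, the 4E-T gene (ENSMUSG00000020454.17, chr11:3202392-3244588), showed the largest rise. Its nascent RNA was at 66.9, 70.2 and 79.5 CPM in wild type, at 88.1 and 90.5 in clone 1 and at 101 and 89.1 in clone 2. All 4 KO cultures exceeded all 3 of wild type, and the fitted difference was 0.35 ± 0.0865 (SE, adjusted p = 8.73e-04). It was called under all 18 alternatives run.

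*Patl1* (ENSMUSG00000046139.7, chr19:11912399-11945096) also rose. It was at 112, 107 and 115 CPM in wild-type nascent RNA, at 133 and 140 in clone 1 and at 147 and 126 in clone 2. The groups did not overlap, and the difference was 0.29 ± 0.0805 (adjusted p = 0.00236). The sequencing runs of the 4sU libraries gave unequal values for it, 0.41 in the single-end run, where it was called, and 0.11 in the re-sequencing run (adjusted p = 0.484).

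*Lsm14a* (ENSMUSG00000066568.12, chr7:34344646-34389687), which encodes an RNA-binding protein that competes with other partners for the helicase, was at 130, 158 and 156 CPM in wild type, at 159 and 173 in clone 1 and at 183 and 165 in clone 2. The lowest KO culture was 159 and the highest wild-type culture 158, so the groups barely separated. The difference was 0.19 ± 0.0764 (adjusted p = 0.0390). It was no longer called without wild-type culture 1 (0.11, adjusted p = 0.343), clone 1 culture 2 (adjusted p = 0.0700) or clone 2 culture 1 (adjusted p = 0.0995), or with DESeq2 (adjusted p = 0.132) or limma-voom (adjusted p = 0.0515). The call was also lost with clone 1 alone (adjusted p = 0.145), the single-end run (adjusted p = 0.101) and the re-sequencing run (adjusted p = 0.0953).

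**Figure D3:**
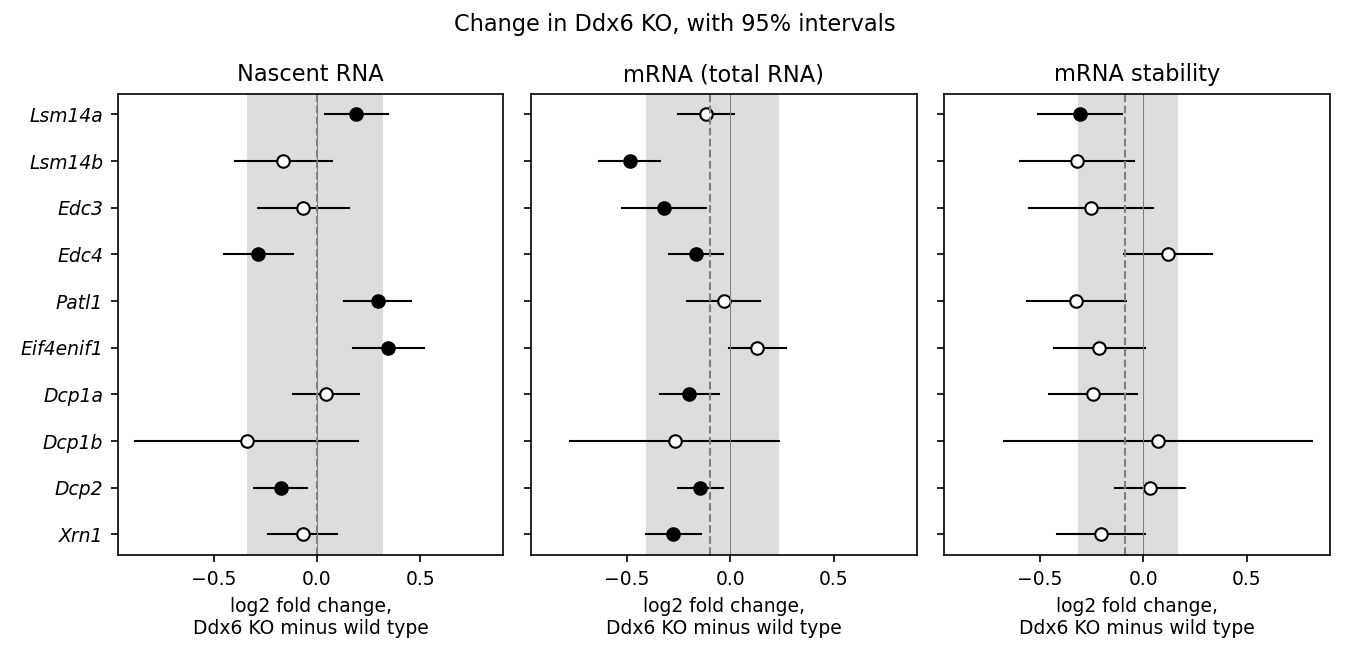
Log2 fold change of each member in KO against wild type, with 95% intervals, in nascent RNA, mRNA and mRNA stability. Filled points have an adjusted p below 0.05, the dashed line is the median of all 14518 tested genes and the grey band their middle 50%. Filled points lay on both sides of the line in nascent RNA and to its left in mRNA, and *Lsm14a* alone is filled in mRNA stability.

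*Edc4* (ENSMUSG00000036270.16, chr8:105880881-105893225), whose product is a scaffold of the decapping complex, fell in nascent RNA. It was at 144, 121 and 116 CPM in wild type, at 88.9 and 103 in clone 1 and at 117 and 107 in clone 2. The ranges overlapped through a single culture of clone 2, and the difference was -0.28 ± 0.0835 (adjusted p = 0.00450). Without wild-type culture 1 it was -0.19 (adjusted p = 0.0912) and with clone 2 alone -0.17 (adjusted p = 0.174), and with library size alone -0.08 (adjusted p = 0.450), none of which was called.

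*Dcp2* (ENSMUSG00000024472.9, chr18:44380502-44424969), the catalytic subunit, was at 220, 207 and 236 CPM in wild-type nascent RNA, at 194 and 197 in clone 1 and at 208 and 185 in clone 2. These groups overlapped. The difference was -0.18 ± 0.0645 (adjusted p = 0.0237), and it turned to 0.03 when libraries were scaled by size alone (adjusted p = 0.730). It was not called without wild-type culture 3 (adjusted p = 0.160) or clone 2 culture 2 (adjusted p = 0.0936). Neither clone 1 alone (adjusted p = 0.0613) nor clone 2 alone (adjusted p = 0.104) gave a call. The *Dcp2* call was further lost with the single-end run (adjusted p = 0.152) and no filter (0.256). Without genes on chromosome 6 the adjusted p was 0.0530, and with replicate number as a block 0.0642.

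The other 5 members gave no call in nascent RNA. *Lsm14b* differed by -0.16, *Edc3* by -0.07, *Xrn1* by -0.07 and *Dcp1a* by 0.04, and the 95% interval of *Edc3* ran from -0.29 to 0.15. *Dcp1b* (ENSMUSG00000041477.14, chr6:119175253-119221616) had between 20 and 26 counts per 4sU library and between 19 and 33 per total RNA library. Its 4 KO cultures, at 6.01-6.81 CPM, lay below the 8.004-8.80 of wild type, but the interval of the difference, -0.88 to 0.20, was wide at this depth. *Dcp1b* lies on chromosome 6, whose tested genes had a median of 0.53 in nascent RNA and 0.43 in mRNA against -0.02 and -0.12 on other chromosomes. The values of *Dcp1b* were -0.34 and -0.27.

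Total RNA was compared to ask how the level of each partner's mRNA differed. 6 members were lower in KO and none was higher, beside 31% of all tested genes called lower and 19.5% called higher. *Lsm14b*, *Edc3*, *Edc4*, *Dcp1a*, *Dcp2* and *Xrn1* are the 6, and in each of them every KO culture lay below every wild-type culture, as in 32% of all genes. In none did every KO culture lie above, as in 20.4%. No member passed an absolute log2 fold change of 1, which 10.1% of genes did with an adjusted p below 0.05. The members' median was -0.18, beside -0.10 for all tested genes. This count rests on the scaling: with library size alone *Lsm14b* was lower (-0.33) and *Eif4enif1* higher (0.29), and no other member was called.

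*Lsm14b* (ENSMUSG00000039108.14, chr2:180024987-180035465), the paralogue of *Lsm14a*, fell most. Its total RNA was at 102, 91.9 and 94.9 CPM in wild type, at 67.7 and 73.8 in clone 1 and at 66.2 and 66.9 in clone 2. The gap between groups exceeded the spread within either, and the KO level was 0.714 times that of wild type, a log2 difference of -0.49 ± 0.0736 (adjusted p = 1.17e-07). It was called under all 18 alternatives run. In nascent RNA *Lsm14b* was at 37.8, 39.7 and 35.2 CPM in wild type, at 29.4 and 37.9 in clone 1 and at 32.5 and 34.6 in clone 2, and those groups overlapped.

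*Xrn1* (ENSMUSG00000032410.13, chr9:95954760-96057803), the 5′ exonuclease, was at 128, 122 and 129 CPM in wild-type total RNA, at 98.3 and 97.3 in clone 1 and at 110 and 113 in clone 2. All KO cultures were lower, those of clone 1 more so, and the difference was -0.27 ± 0.0660 (adjusted p = 3.94e-04). It stayed called without any single culture. With clone 2 alone it was -0.17 (adjusted p = 0.0690), with library size alone -0.12 (adjusted p = 0.137) and with no filter -0.17 (adjusted p = 0.0530).

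*Edc3* (ENSMUSG00000038957.13, chr9:57708540-57752499), an activator of decapping that binds both DDX6 and DCP2, was at 28.2, 30.8 and 35.7 CPM in wild-type total RNA, at 24.5 and 25.5 in clone 1 and at 26.4 and 25.1 in clone 2. The KO cultures were close to each other and the wild-type cultures spread. The difference was -0.32 ± 0.102 (adjusted p = 0.00703), and -0.22 without wild-type culture 3 (adjusted p = 0.114). The *Edc3* call was also lost with clone 2 alone (adjusted p = 0.0559), TMM within each assay (0.0580) and library size alone (0.186). The same held with no filter (adjusted p = 0.144) and with replicate number as a block (0.0758).

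*Dcp1a* (ENSMUSG00000021962.8, chr14:30479565-30527056), a cofactor of DCP2, was at 85.3, 89.4 and 94.5 CPM in wild-type total RNA, at 81.4 and 72.1 in clone 1 and at 78.9 and 81.4 in clone 2. The difference was -0.20 ± 0.0706 (adjusted p = 0.0163). It was not called without wild-type culture 3 (adjusted p = 0.0916) or clone 1 culture 2 (adjusted p = 0.106). The *Dcp1a* call was also lost with clone 2 alone (adjusted p = 0.142), TMM within each assay (0.219) and library size alone (0.665). The same held with no filter (adjusted p = 0.458) and with replicate number as a block (0.107).

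*Dcp2* had the highest CPM of the members in total RNA, 408, 428 and 419 in wild type, 393 and 394 in clone 1 and 369 and 357 in clone 2. Its difference of -0.15 ± 0.0545 (adjusted p = 0.0218) turned to 0.01 with library size alone and was not called without wild-type culture 2, clone 2 culture 1 or clone 2 culture 2 (adjusted p = 0.0844, 0.0986 and 0.125). The *Dcp2* call was also lost with clone 1 alone (adjusted p = 0.364) and with TMM within each assay (adjusted p = 0.435). The same held with no filter (adjusted p = 0.684), without genes on chromosome 6 (0.0670) and with replicate number as a block (0.0688). *Edc4* was at 232, 202 and 222 in wild type, 201 and 195 in clone 1 and 202 and 182 in clone 2. Its difference of -0.17 ± 0.0651 (adjusted p = 0.0293) was not called without wild-type culture 1 or 3, clone 1 culture 2 or clone 2 culture 2 (adjusted p = 0.152, 0.0696, 0.0747 and 0.146). The *Edc4* call was also lost with DESeq2 (adjusted p = 0.123), clone 1 alone (adjusted p = 0.154) and clone 2 alone (adjusted p = 0.0626). Other losses came with TMM within each assay (adjusted p = 0.361), library size alone (0.919), no filter (0.565) and without genes on chromosome 6 (0.0719).

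The direct partners that were higher in nascent RNA gave no call in mRNA with the main settings. *Eif4enif1* was at 90.1, 95.003 and 86.02 CPM in wild-type total RNA, at 99.5 and 99.7 in clone 1 and at 93.8 and 103 in clone 2, a difference of 0.13 with an interval of -0.0056 to 0.27. It was called higher under 5 of 18 alternatives: TMM within each assay (0.22, adjusted p = 0.00531), library size alone (0.29), no filter (0.23, adjusted p = 0.00749), without genes on chromosome 6 (0.16, adjusted p = 0.0489) and without clone 2 culture 1 (0.17, adjusted p = 0.0450). *Lsm14a* was at 143, 149 and 148 in wild type, at 117 and 134 in clone 1 and at 146 and 143 in clone 2. Its difference was -0.12, with an interval of -0.25 to 0.02, and it was called with clone 1 alone (-0.20, adjusted p = 0.0256) and turned to 0.04 with library size alone. *Patl1* was at 40.8, 37.4 and 36.8 in wild type, at 33.9 and 35.3 in clone 1 and at 38.2 and 42.3 in clone 2, a difference of -0.03 with an interval of -0.21 to 0.15, and 0.13 with library size alone.

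mRNA stability was compared as the change in total RNA minus that in nascent RNA, an interaction of genotype and assay. *Lsm14a* was the only member called, 1 of 10, beside 12.3% of all tested genes. Of these genes 8.51% were called lower and 3.77% higher. At an unadjusted p below 0.05 stood *Lsm14a*, *Lsm14b*, *Patl1* and *Dcp1a*, 4 of 10, beside 24.9% of all genes. The members' median was -0.23, beside -0.09 for all tested genes. 7 members were below 0 and 3 above, as were 8795 and 5723 of all genes. In *Lsm14a*, *Lsm14b*, *Edc3* and *Dcp1a* every KO culture lay below every wild-type culture, as in 15.4% of all genes, and no member had every KO culture above, as in 7.44%. None passed an absolute log2 fold change of 1, which 1.08% of genes did with an adjusted p below 0.05.

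The log2 total-over-4sU ratio of *Lsm14a* was 0.14, -0.09 and -0.08 in wild type, -0.44 and -0.36 in clone 1 and -0.32 and -0.21 in clone 2. The groups did not overlap, and the fitted change was -0.31 ± 0.102 (adjusted p = 0.0355), with 25.3% of tested genes at a lower value. The call was lost without any of the 3 wild-type cultures (adjusted p = 0.184, 0.0700 and 0.0517), without either culture of clone 1 (0.0812 and 0.0903) and without clone 2 culture 1 (0.0616). It was also lost with DESeq2 (adjusted p = 0.151), TMM within each assay (0.185), no filter (0.136) and clone 2 alone (0.215). Either run alone lost it too, the single-end run (adjusted p = 0.0855) and the re-sequencing run (adjusted p = 0.0652). The direction was the same under all 19 alternatives run.

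*Patl1* changed by a similar amount without a call. Its ratio was -1.45, -1.498 and -1.63 in wild type, -1.95 and -1.97 in clone 1 and -1.93 and -1.57 in clone 2. Clone 2 culture 2 lay within the wild-type range and the other KO cultures below it. The fitted change was -0.32 ± 0.120 (adjusted p = 0.0644), and -0.42 without that culture (adjusted p = 0.0187).

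*Lsm14b* had a ratio of 1.42, 1.202 and 1.42 in wild type, 1.19 and 0.95 in clone 1 and 1.02 and 0.94 in clone 2. Its change of -0.32 ± 0.138 missed the threshold (adjusted p = 0.121). *Dcp1a* changed by -0.24 (adjusted p = 0.135), *Edc3* by -0.25 (adjusted p = 0.298), *Eif4enif1* by -0.21 (adjusted p = 0.221) and *Xrn1* by -0.20 (adjusted p = 0.219). These are close to the change of *Lsm14a* in size, and the intervals of all 5 overlap that of *Lsm14a*.

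Stability of the remaining members differed least. *Dcp2*, at 0.89, 1.04 and 0.83 in wild type, 1.02 and 1.00 in clone 1 and 0.83 and 0.94 in clone 2, changed by 0.03, with a 95% interval of -0.14 to 0.20. *Edc4* changed by 0.12, with an interval of -0.09 to 0.33. *Dcp1b* changed by 0.07, with an interval of -0.68 to 0.82, and was not measurable to better than that at its depth.

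The paralogue pairs can be compared as shares of their summed CPM per kb. *Lsm14b* made up 40.1% ± 1.92 (SD, n = 3) of *Lsm14a* and *Lsm14b* in wild-type total RNA and 34.2% ± 2.68 (SD, n = 4) in KO, with ranges of 38.5-42.2% and 31.5-37.0%. In nascent RNA the share was 20.6% ± 2.13 and 16.7% ± 1.40, again without overlap. *Dcp1b* made up 7.76% ± 1.06 of *Dcp1a* and *Dcp1b* in wild-type and 7.39% ± 2.09 in KO total RNA, and these ranges overlapped. In nascent RNA its share was 11.6% ± 1.06 in wild type and 9.10% ± 0.961 in KO, without overlap, on 20 to 26 counts of *Dcp1b* a library. Counts were restricted to uniquely mapped reads, so bases that paralogues share would count for neither.

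The clones were compared directly, clone 2 minus clone 1. No member passed an adjusted p of 0.05 in edgeR in nascent RNA, mRNA or mRNA stability, beside 0.165%, 0.296% and 0.00689% of all tested genes, and limma-voom called none either. At an unadjusted p below 0.05 there were 4 of 30 differences, beside 6.52% of all genes in nascent RNA, 6.61% in mRNA and 4.03% in stability. *Edc4* was higher in clone 2 by 0.22 in nascent RNA and lower by -0.27 in stability, *Lsm14a* was higher by 0.20 in mRNA and *Xrn1* by 0.18 in mRNA, with adjusted p of 0.734, 1.00, 0.619 and 0.686. In stability the intervals ran from -0.53 to -0.0017 for *Edc4* and from -0.08 to 0.51 for *Patl1*, and the widest, that of *Dcp1b*, from -0.88 to 1.06. These hold differences as large as those between KO and wild type.

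The wider set of DDX6 and decapping partners held 36 genes in 4 lists, of which 35 were tested. *Eif4e3* was below the filter. In mRNA 7 of the 35 were higher and 16 lower, beside 19.5% and 31% of all tested genes. In nascent RNA 6 were higher and 9 lower, beside 20.5% and 21%, and in stability 2 and 3, beside 3.77% and 8.51%. Their median in stability was -0.07, near the -0.09 of all tested genes.

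The LSM1-LSM7 ring binds the 3′ ends of deadenylated mRNAs together with PATL1. Of its 7 subunits *Lsm1* (-0.30), *Lsm2* (-0.47) and *Lsm4* (-0.30) fell in mRNA, beside 31% of all genes, and *Lsm3* rose (0.24), beside 19.5%. In stability none of the 7 was called by edgeR, and *Lsm1* was the only one with an unadjusted p below 0.05 (0.0269). With library size alone, *Lsm1* was not called in mRNA (-0.15, adjusted p = 0.136).

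The list of other decapping and 5′ end enzymes held 9 genes. *Pnrc2*, which links decapping to nonsense-mediated decay, was at 356 ± 15.8 CPM in wild-type and 227 ± 14.7 in KO nascent RNA (SD, n = 3 and 4) while its total RNA was at 92.5 ± 3.57 and 95.1 ± 4.16. Its stability rose by 0.69 ± 0.0910 (adjusted p = 1.45e-07). *Pnrc1*, its nucleolar relative, rose in stability by 0.76 ± 0.112 (adjusted p = 1.46e-06) and in mRNA by 0.22 (adjusted p = 0.0166), the latter lost with clone 2 alone (0.10) and without clone 1 culture 1 or wild-type culture 2 or 3 (adjusted p = 0.0981, 0.0566 and 0.0879).

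*Xrn2*, the nuclear counterpart of *Xrn1*, fell in stability by -0.35 ± 0.0850 (adjusted p = 0.00366) and in mRNA by -0.19, and the mRNA call was lost with library size alone (-0.04). That mRNA call was also lost with TMM within each assay (adjusted p = 0.121) and with clone 1 alone (adjusted p = 0.0568). *Dcps*, which hydrolyses the cap left after 3′ to 5′ decay, fell in mRNA by -0.32 (adjusted p = 0.00408), and by -0.24 without wild-type culture 1 (adjusted p = 0.0585). Its call was also lost with clone 1 alone (adjusted p = 0.0598) and with library size alone (adjusted p = 0.159). Over this list, mRNA was higher in 2 and lower in 3, beside 19.5% and 31% of all genes, and stability higher in 2 and lower in 1, beside 3.77% and 8.51%. The stability calls of *Pnrc1*, *Pnrc2* and *Xrn2* were made under every alternative run.

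**Figure D4:**
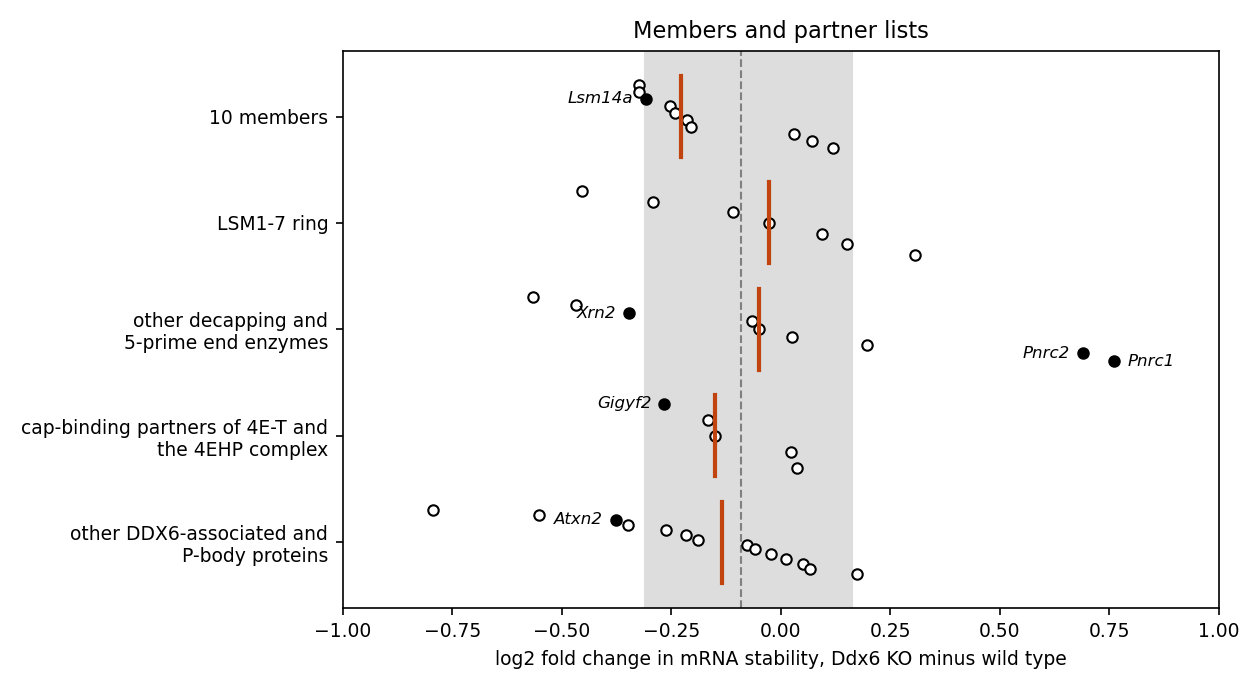
Log2 fold change in mRNA stability in KO against wild type for the 10 members and the 35 tested genes of the 4 partner lists, 1 point per gene, spread vertically within a list for legibility. Filled points have an adjusted p below 0.05, the red bars are list medians, and the dashed line and grey band are the median and middle 50% of all 14518 tested genes. *Pnrc1* and *Pnrc2* lay to the right of every member.

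4E-T binds the cap-binding proteins of the EIF4E family, and GIGYF2 joins 4EHP (EIF4E2) in repressing translation. Of 5 tested genes on this list, *Zfp598* (-0.32) and *Gigyf2* (-0.20) fell and *Gigyf1* rose (0.22) in mRNA, beside 31% and 19.5% of all genes. *Gigyf2* was the only gene called in stability, at -0.27 ± 0.0933 (adjusted p = 0.0499). The stability call of *Gigyf2* was lost without any culture except clone 2 culture 2, with adjusted p between 0.0539 and 0.332. That stability call of *Gigyf2* was also lost with DESeq2 (adjusted p = 0.143), limma-voom (0.0579) and either clone alone (0.0828 and 0.251). Its mRNA call was lost with clone 2 alone (adjusted p = 0.156), TMM within each assay (adjusted p = 0.131) and library size alone (adjusted p = 0.594). The mRNA call of *Gigyf1* was lost without wild-type culture 2 or 3 (adjusted p = 0.0800 and 0.0536). *Eif4e* and *Eif4e2* gave no call, at -0.09 and 0.08 in mRNA.

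Among 14 other proteins of P-bodies or known to associate with DDX6, 3 were higher and 8 lower in mRNA, beside 19.5% and 31% of all genes. *Atxn2l*, a regulator of stress granules and P-bodies, fell in mRNA from 256 ± 13.8 CPM in wild type to 163 ± 10.5 in KO (SD, n = 3 and 4), by -0.65 on the log2 scale (adjusted p = 7.41e-14). *Cpeb2*, a cytoplasmic polyadenylation factor, fell in mRNA by -1.02 ± 0.274 (SE, adjusted p = 0.00144), from a low 5.37 CPM in wild type to 2.64 in KO. Its family went both ways: *Cpeb1* fell by -1.10, from a low 6.16 CPM to 2.82, *Cpeb4* rose by 0.97, and *Cpeb3* gave no call (0.31). *Patl2*, the paralogue of *Patl1*, rose by 0.70 in mRNA (0.46 without wild-type culture 3) and by 1.5002 in nascent RNA. Its levels were low, 8.74 ± 2.66 CPM in wild-type and 14.1 ± 1.86 in KO total RNA (SD, n = 3 and 4). In nascent RNA they were 5.87 ± 1.78 and 16.3 ± 1.39. *Atxn2*, an RNA-binding partner of DDX6, was the only gene of this list called in stability, at -0.38 ± 0.113 (adjusted p = 0.0190), and was not called without wild-type culture 2 (adjusted p = 0.149) or clone 2 culture 1 (adjusted p = 0.101).

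Likeness of pattern was measured for *Lsm14a*, the member with the smallest p in stability, as Pearson's r between log2 total-over-4sU ratios over the 7 cultures. The 3 tested genes most like it were *Med13* (r = 0.995), *Arih1* (r = 0.992) and *Chd9* (r = 0.984). They were picked as the highest over all other tested genes, each over 7 points that share their libraries, and are a description only.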

How the data were processed

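Nascent and total RNA of 7 cultures were measured by 4sU-Seq and RNA-Seq. Per the submitters' notes and the study's methods, adapters were removed with Cutadapt, unique alignments to mm10 came from STAR 2.5.3a, and featureCounts 1.5.3 assigned them by strand to Gencode M14, rRNA left out. The authors deposited counts per gene with no scaling, beside gene lengths. Runs of a 4sU library were summed. Totals were 2441639-3570192 for 4sU and 5724179-7369651 for total RNA, where a floor of 3 counts is at most 1.23 and 0.524 CPM. Such floors cover counting error only.

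Genotype, assay and their interaction were fitted over 14 libraries with edgeR 4.0.16 (TMM, quasi-likelihood, robust), with Benjamini-Hochberg adjustment over 14518 genes. DESeq2, limma-voom, other scalings and filters, each run, blocks, each clone and each culture left out were tried. The 4sU and total RNA of a culture are parts of the same extract, so culture pairs them. Deviations from group means correlated by 0.0035 to 0.125 within a culture. The code was tested on simulated data. Transcript features are from Gencode M21 of the same build, by APPRIS principal isoform, and all 10 members matched.

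All members are named, with *Ddx6*, at most 4 called genes of each partner list by smallest p in stability, and the 3 genes most like the member of smallest p. The other CPEB genes of the lists are named beside *Cpeb2*. The members, lists and alternatives were chosen with earlier results of these data known. Other experiments of the study are not analysed here.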

Additional observations from a re-analysis of the deposited data

Results flagged for a closer look

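In the 4 KO cultures, 30 sets of values (10 members in nascent RNA, mRNA and stability) were checked for a culture far from the others, and 2 were marked, where chance would mark about 1.5. Clone 2 culture 2 stood above the other KO cultures in the log2 total-over-4sU ratio of *Patl1*, at -1.57 against -1.97 to -1.93, a gap of 0.891 of the range. Clone 2 culture 1 stood below the others in the nascent RNA of *Dcp1b*, at 2.70 against 2.85 to 2.87 in log2 CPM with 0.5 added, a gap of 0.857 of the range, with 20 counts in that library. Neither cause was tested.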

How the results depend on the processing

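No member passed an absolute log2 fold change of 1 beside the adjusted p, so 0 were called in nascent RNA, mRNA and mRNA stability under that rule. Of 10 members, 5 were called in nascent RNA, and 3 with the single-end run, the re-sequencing run, clone 1 or clone 2 alone, with 3 to 5 when a culture was left out. In mRNA 6 were called, all lower, and 3 to 6 when a culture was left out. Clone 2 alone gave 2 calls, both lower. Running TMM separately by assay gave 3 calls, of which 2 were lower. Scaling by library size gave 2 calls, of which 1 was lower, and so did dropping the filter. The call in the other direction was *Eif4enif1* each time. It was also called higher without genes on chromosome 6 and without clone 2 culture 1. In stability 1 was called, 0 with DESeq2, TMM within each assay, no filter or clone 2 alone, and 2 with library size only or clone 1 alone, with 0 to 2 when a culture was left out. The single-end run called *Patl1* and the re-sequencing run *Xrn1* in place of *Lsm14a*. The cause was not tested. With culture as a block, *Lsm14a* was the 1 member called in stability, and no other call of a member changed. Replicate numbers, which correlated by 0.0138 (4sU) and 0.0170 (total RNA) on average between genotypes, share only a number, and as a block gave 4 calls in nascent RNA, 3 in mRNA and 1 in stability. No member differed between clones under any alternative run for that comparison. The comparison was not run with DESeq2, without genes on chromosome 6, with culture as a block or without a wild-type culture.

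Direction turned in these cases, and among called members only for *Dcp2*. With library size only, nascent RNA was 0.041 for *Lsm14b*, 0.14 for *Edc3*, 0.030 for *Dcp2* and 0.14 for *Xrn1*, mRNA was 0.040 for *Lsm14a*, 0.13 for *Patl1* and 0.011 for *Dcp2*, and stability was -0.018 for *Dcp2*. With the re-sequencing run, nascent RNA was 0.042 for *Dcp1b* and 0.15 for *Xrn1*, and stability -0.31 for *Dcp1b*. Nascent RNA of *Dcp1a* was -0.013 with the single-end run, and that of *Edc3* 0.023 with the replicate block and between -0.15 and 0.00014 when a culture was left out. mRNA of *Patl1* was 0.061 with TMM within each assay, 0.070 without a filter, 0.085 with clone 2 alone and between -0.074 and 0.018 when a culture was left out. With clone 2 alone, stability was -0.0018 for *Edc4* and -0.027 for *Dcp2*. Leaving out a culture gave stability between -0.084 and 0.21 for *Dcp1b* and between -0.018 and 0.094 for *Dcp2*. Depth limits *Dcp1b* above all, at 19 to 33 counts a library.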
